A study of Mus musculus with 10 samples.

Results

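The genes followed here, in mouse intestinal tissue, mark T cells lodged in the gut epithelium: the CD3 chains Cd3d, Cd3e and Cd3g, the CD8 chains Cd8a and Cd8b1, the signalling kinases Lck and Zap70, the integrin chain Itgae and the granzymes Gzma and Gzmb. They were chosen by symbol, and all 10 were found among the 19456 genes listed in at least 1 of the 10 libraries. The libraries were poly-A RNA sequencing of intestine from C57BL/6 mice in 4 groups. TG DSS (2 libraries) came from transgenic mice that overexpress ITGB6 and were given 2.5% dextran sulfate sodium (DSS) by mouth as a model of intestinal fibrosis, and WT DSS (2) from wild-type mice given the same. TG untreated (3) and WT untreated (3) came from transgenic and wild-type mice without DSS. The promoter of the transgene, the stretch of intestine and the ages of the mice are not given in the sources used here. Nor do the labels say whether the libraries of a group came from separate mice, so the p-values below measure only the spread between these libraries.

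Intraepithelial lymphocytes are T cells that sit between the epithelial cells of the gut, and most of them carry CD8. The CD3 chains carry the signal of the T cell receptor into the cell, Lck phosphorylates them when the receptor is engaged, and Zap70 docks on the phosphorylated chains. CD8 occurs as a pair of alpha chains, common on innate-like intraepithelial cells, or as an alpha chain with a beta chain, the form of conventional cytotoxic T cells. Itgae encodes CD103, which pairs with the integrin beta 7 chain (Itgb7) and binds E-cadherin on epithelial cells. TGF-beta induces Itgae in T cells, and the integrin that contains ITGB6 activates latent TGF-beta. Granzymes A and B are proteases of cytotoxic granules, made by cytotoxic T cells and also by natural killer cells.

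In mm10 the 3 CD3 genes lie side by side on chromosome 9, Cd3g at 44969572 to 44980431, Cd3d at 44981769 to 44987052 and Cd3e at 44998735 to 45009663. The CD8 genes are neighbours on chromosome 6, Cd8b1 at 71322788 to 71337492 and Cd8a at 71373427 to 71379171. The other members lie apart: Zap70 on chromosome 1 (36761798 to 36782821), Lck on chromosome 4 (129548344 to 129573641), Itgae on chromosome 11 (73090505 to 73147449), Gzma on chromosome 13 (113093824 to 113100981) and Gzmb on chromosome 14 (56258836 to 56262334).

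Since the members moved together across the libraries, the DNA around their start sites was read for letters shared by 2 families of T cell transcription factors. RefSeq windows (GRCm38.p6, the assembly of mm10) running from 250 bases before a start to 50 after it were at hand for 8 of the 10 members, 11 windows in all. The RUNX letters TGTGGT, on either strand, occurred in 4 of the 11 windows, and in 16.8% of 32851 windows of all genes. The ETS letters AGGAAG, on either strand, occurred in 6 of the 11, and in 35.4% of all windows. A match describes these letters only. The 4 windows printed here show a member with ETS letters alone (Cd3e, chr9:45009562-45009861, minus strand), one with both kinds (the upstream start of Lck, chr4:129573592-129573891, minus strand), one with RUNX letters alone (Gzmb, chr14:56262285-56262584, minus strand) and one with neither (Cd8a, chr6:71373177-71373476, plus strand). Capitals mark the matches, read 5′ to 3′ on the strand of the gene, so a match on the other strand appears as ACCACA or CTTCCT.
Cd3e: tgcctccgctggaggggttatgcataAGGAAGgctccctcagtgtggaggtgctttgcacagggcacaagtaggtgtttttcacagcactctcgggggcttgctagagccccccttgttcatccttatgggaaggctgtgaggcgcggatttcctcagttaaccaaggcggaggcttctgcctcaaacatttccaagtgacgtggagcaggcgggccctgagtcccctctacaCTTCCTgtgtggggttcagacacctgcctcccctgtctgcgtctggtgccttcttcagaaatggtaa
Lck: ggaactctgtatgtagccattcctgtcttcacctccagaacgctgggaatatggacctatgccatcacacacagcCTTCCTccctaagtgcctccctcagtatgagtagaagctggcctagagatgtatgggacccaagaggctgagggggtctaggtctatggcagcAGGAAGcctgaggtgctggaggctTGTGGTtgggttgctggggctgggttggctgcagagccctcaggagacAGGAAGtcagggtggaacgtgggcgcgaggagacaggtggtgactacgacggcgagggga
Gzmb: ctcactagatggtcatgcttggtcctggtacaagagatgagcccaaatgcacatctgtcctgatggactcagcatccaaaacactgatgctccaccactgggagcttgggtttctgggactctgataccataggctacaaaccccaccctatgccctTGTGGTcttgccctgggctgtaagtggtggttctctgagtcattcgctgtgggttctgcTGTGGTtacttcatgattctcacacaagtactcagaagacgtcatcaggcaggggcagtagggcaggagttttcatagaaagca
Cd8a: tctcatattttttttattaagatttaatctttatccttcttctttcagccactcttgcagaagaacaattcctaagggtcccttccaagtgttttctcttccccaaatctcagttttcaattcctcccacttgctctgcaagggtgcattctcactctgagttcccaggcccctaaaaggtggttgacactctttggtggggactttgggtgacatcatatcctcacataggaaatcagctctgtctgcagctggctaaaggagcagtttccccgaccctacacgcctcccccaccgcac

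The libraries held 15393859 to 18284704 expected counts each, and the members 36.12 to 1665 each. Levels are given as library-scaled counts (CPM, scaled by TMM). The human ITGB6 transcript stood at 2200 to 3910 CPM in TG libraries and 0.117 to 1.13 CPM in WT libraries. Krt8, a keratin of gut epithelium, was at 5430 to 8800 CPM and Myh11, the myosin of gut muscle, at 0 to 0.308 CPM, so the tissue sampled was rich in epithelium and almost free of muscle RNA. Xist, which is expressed in females, stood at 307 to 739 CPM in the 4 DSS libraries and at 0 to 0.417 CPM in the 6 untreated libraries, and the Y-linked Ddx3y at 0 to 0.234 CPM in DSS libraries and 14.2 to 46.4 CPM in untreated libraries. DSS and sex therefore cannot be told apart in any comparison of DSS with untreated. TG untreated 1 stood apart from the other untreated libraries: its rank correlation with TG untreated 2 and 3 was 0.973 and 0.975, against 0.993 between those 2, its Ddx3y was 14.2 CPM against 42.1 to 46.4 CPM in the other 5, and its Ptprc, the gene of the leukocyte antigen CD45, was 8.94 CPM against 56.9 to 114 CPM. Results that rest on it are given with and without it.

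After DSS the members were low in both genotypes and close to one another. Their summed level was 88.6 and 96.0 CPM in TG DSS and 115 and 88.3 CPM in WT DSS, against 93.6, 228 and 312 CPM in TG untreated and 254, 492 and 245 CPM in WT untreated. The DSS libraries thus lay within a narrow range, while the untreated libraries were spread, with TG untreated 1 at the level of the DSS libraries and WT untreated 2 the highest of all. In bulk tissue, fewer cells of a type and less RNA per cell cannot be told apart.

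**Figure D1:**
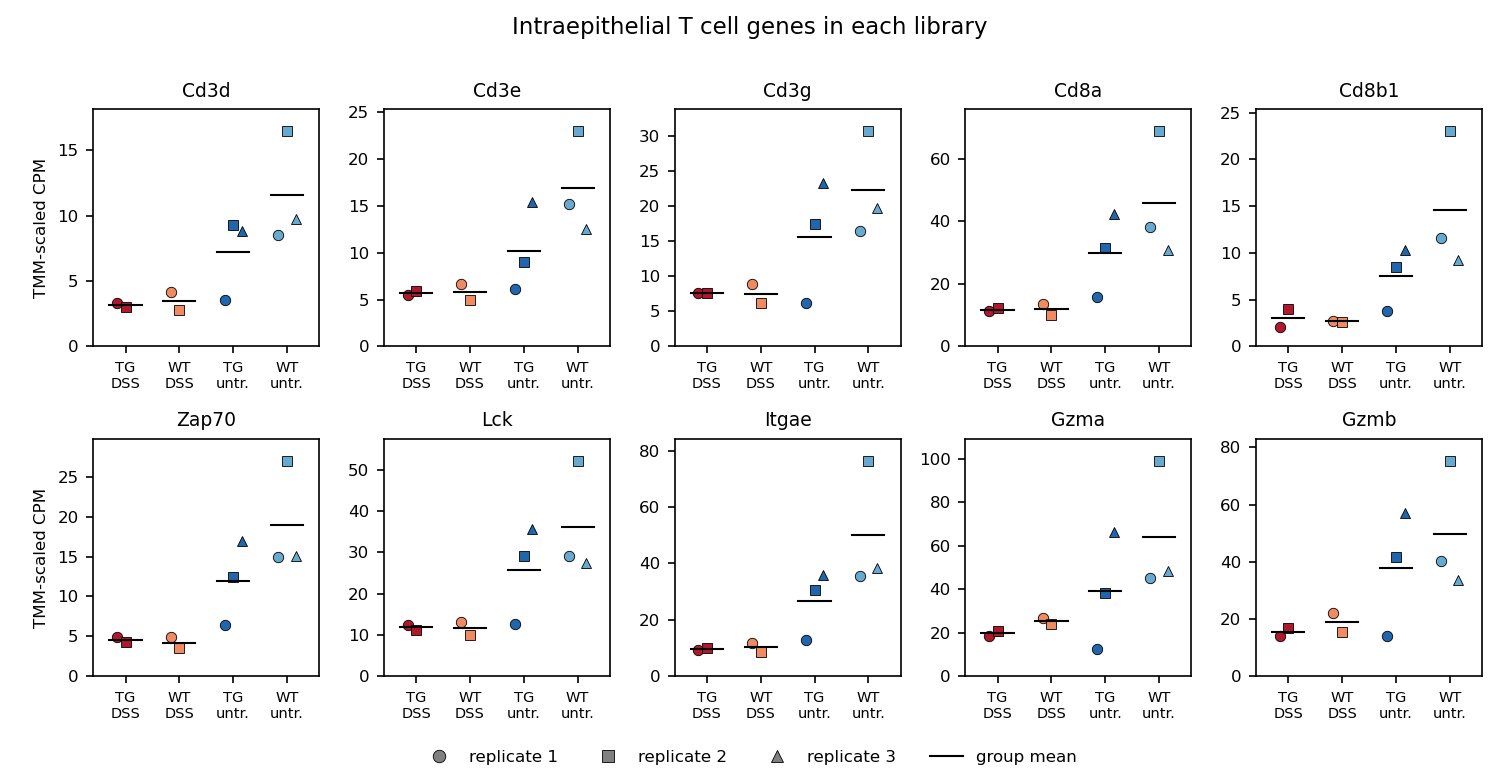
Level of each of the 10 members (TMM-scaled CPM, linear axes from 0) in each library of TG DSS, WT DSS, TG untreated and WT untreated; symbols are the replicates and bars the group means. The DSS libraries sit low and close together, and among untreated libraries TG untreated 1 is the lowest and WT untreated 2 the highest in every panel.

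The CD3 chains come first, as the invariant part of the receptor. Cd3e, whose product is the target of the antibodies most used to stain T cells, stood at 5.51 and 5.91 CPM in TG DSS, 6.62 and 4.92 CPM in WT DSS, 6.08, 8.98 and 15.4 CPM in TG untreated and 15.2, 23.0 and 12.5 CPM in WT untreated. Cd3g stood at 7.62 and 7.61 CPM in TG DSS, 8.86 and 6.16 CPM in WT DSS, 6.14, 17.4 and 23.3 CPM in TG untreated and 16.5, 30.7 and 19.7 CPM in WT untreated. For Cd3e the WT DSS libraries lay below every WT untreated library and the TG DSS libraries just below the lowest TG untreated one. For Cd3g, TG untreated 1 lay below both TG DSS libraries, so those groups overlapped. Cd3d, the delta chain, stood at 3.34 and 3.04 CPM in TG DSS, 4.20 and 2.81 CPM in WT DSS, 3.52, 9.27 and 8.81 CPM in TG untreated and 8.50, 16.5 and 9.72 CPM in WT untreated. Its DSS libraries again lay below the untreated libraries of the same genotype, but TG untreated 1 lay below WT DSS 1.

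Of the CD8 chains, Cd8a stood at 11.2 and 12.4 CPM in TG DSS, 13.5 and 10.2 CPM in WT DSS, 15.7, 31.5 and 42.2 CPM in TG untreated and 38.1, 68.9 and 30.8 CPM in WT untreated. Every DSS library lay below every untreated library, TG untreated 1 included. Cd8b1, which marks the form with a beta chain, stood at 2.11 and 4.04 CPM in TG DSS, 2.72 and 2.65 CPM in WT DSS, 3.82, 8.50 and 10.4 CPM in TG untreated and 11.6, 23.0 and 9.23 CPM in WT untreated. TG DSS 2 lay above TG untreated 1. The single lowest count of a member, 36.12 in TG DSS 1, was of Cd8b1, and its expected counts were not whole in any of the 10 libraries, so the counter shared reads between it and other features. In FPKM, which is per length, Cd8a exceeded Cd8b1 in every library: the ratio was 1.36 to 2.36 in DSS libraries and 1.34 to 1.85 in untreated libraries.

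The kinases act together downstream of the receptor. Lck stood at 12.4 and 11.1 CPM in TG DSS, 13.1 and 10.05 CPM in WT DSS, 12.5, 29.1 and 35.7 CPM in TG untreated and 29.1, 52.3 and 27.4 CPM in WT untreated. Zap70 stood at 4.86 and 4.22 CPM in TG DSS, 4.90 and 3.51 CPM in WT DSS, 6.38, 12.4 and 17.0 CPM in TG untreated and 14.96, 27.1 and 15.1 CPM in WT untreated. For Zap70 every DSS library lay below every untreated one, while for Lck TG untreated 1 lay within the range of the DSS libraries. The ratio of Lck to Zap70 in FPKM had a geometric mean of 2.55 in TG DSS, 2.60 in WT DSS, 2.16 in TG untreated and 1.93 in WT untreated. The ratio was higher after DSS by 0.34 on the log2 scale, averaged over genotypes, and this did not pass adjustment over the 4 partner ratios compared (exact permutation test within genotype, two-sided p = 0.02, adjusted p = 0.08). The other ratios, Cd8a to Cd8b1, Gzma to Gzmb and Itgae to Itgb7, gave adjusted p = 0.307, 0.24 and 0.45 in the same exact test, and all 4 were picked after the values had been seen.

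Itgae, the gene of CD103, stood at 9.14 and 10.1 CPM in TG DSS, 11.8 and 8.48 CPM in WT DSS, 12.9, 30.7 and 36.0 CPM in TG untreated and 35.4, 76.5 and 38.4 CPM in WT untreated. Every DSS library lay below every untreated library. Its partner Itgb7 stood at 6.27 and 10.2 CPM in TG DSS, 8.51 and 8.16 CPM in WT DSS, 10.9, 25.4 and 31.4 CPM in TG untreated and 26.3, 55.7 and 26.1 CPM in WT untreated. Both chains were thus lowest after DSS, and their ratio in FPKM had a geometric mean of 0.839 in TG DSS, 0.843 in WT DSS, 0.828 in TG untreated and 0.977 in WT untreated.

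The granzymes are the effector genes of the set. Gzma stood at 18.3 and 20.8 CPM in TG DSS, 26.6 and 24.0 CPM in WT DSS, 12.6, 38.2 and 66.2 CPM in TG untreated and 45.0, 99.1 and 48.3 CPM in WT untreated. Gzmb stood at 14.1 and 16.7 CPM in TG DSS, 22.2 and 15.5 CPM in WT DSS, 14.0, 41.8 and 57.1 CPM in TG untreated and 40.2, 75.4 and 33.7 CPM in WT untreated. Both had a TG untreated 1 value below every DSS library, and WT DSS below every WT untreated library. Per length, Gzma had the highest level of the members and Gzmb the second highest in every group: Gzma averaged 21.6 ± 1.52 FPKM in TG DSS, 29.5 ± 1.05 FPKM in WT DSS (SD, n = 2 each), 45.0 ± 30.6 FPKM in TG untreated and 78.2 ± 36.9 FPKM in WT untreated (SD, n = 3 each). Zap70, at 2.10 ± 0.502 FPKM in TG DSS, 2.08 ± 0.0566 FPKM in WT DSS, 5.42 ± 2.19 FPKM in TG untreated and 9.26 ± 3.45 FPKM in WT untreated, was among the 3 lowest in every group.

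All 10 members passed the filter on low counts, and DSS was compared with untreated within each genotype by edgeR's quasi-likelihood test with Benjamini-Hochberg adjustment over 14072 genes, called at an adjusted p under 0.05. In WT, 8 of the 10 members fell after DSS and none rose; 9.62% of all genes tested were called lower. The members' log2 fold changes ran from -2.44 to -1.34 with a median of -1.69, against a median of 0.0021 over all genes tested. Cd8b1 fell 5.44-fold (log2 -2.44, SE 0.52, edgeR adjusted p = 0.0115), Itgae fell 4.94-fold (log2 -2.30, SE 0.46, adjusted p = 0.00867) and Zap70 fell 4.53-fold (log2 -2.18, SE 0.42, adjusted p = 0.00754). The 3 CD3 genes also fell, with log2 changes of -1.73 for Cd3d, -1.55 for Cd3e and -1.57 for Cd3g, as did Lck at -1.65 and Cd8a at -1.95. Neither granzyme passed: Gzma had a log2 change of -1.34 (SE 0.56, edgeR adjusted p = 0.123) and Gzmb of -1.40 (SE 0.52, edgeR adjusted p = 0.0859), both with an unadjusted p under 0.05.

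The WT DSS libraries lay below every WT untreated library for 10 of 10 members, which held for 29.1% of all genes tested. The number called hung on single libraries: it was 0 without WT DSS 2, 6 without WT DSS 1, 4 without WT untreated 2 and 10 without TG untreated 1, which enters only through the shared estimate of the spread. Without WT DSS 2 all 10 log2 changes stayed below 0, with a median of -1.47, a lowest edgeR adjusted p of 0.0771 for Zap70 and 7 unadjusted p-values under 0.05. Without WT untreated 2 the calls were Cd8a, Cd8b1, Itgae and Zap70. Calls over all genes moved as well. With all libraries 1354 of 14072 genes were called lower, against 767 of 14011 without WT untreated 2 and 1981 of 14054 without TG untreated 1. They were also fewer without WT DSS 1 or WT DSS 2, fits that leave 1 library in that group.

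In TG, none of the 10 members passed after DSS in edgeR, and 2.15% of all genes tested were called lower. All 10 log2 changes were below 0, from -1.47 for Itgae to -0.83 for Cd3e with a median of -1.23, and 7 had an unadjusted p under 0.05. The lowest edgeR adjusted p was 0.0868, for Zap70 (log2 -1.39, SE 0.41). DESeq2 called 3 of the 10. Without TG untreated 1, edgeR called 9 of the 10 lower, all but Cd3e (adjusted p = 0.0583), and 6.43% of all genes, with a median log2 change of -1.56. The TG DSS libraries lay below every TG untreated library for 6 of the 10 members, all but Cd3g, Cd8b1, Gzma and Gzmb, and for 16.0% of all genes. All 4 DSS libraries lay below all 6 untreated libraries for Cd8a, Zap70 and Itgae, 3 of the 10, and for 6.25% of all genes.

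**Figure D2:**
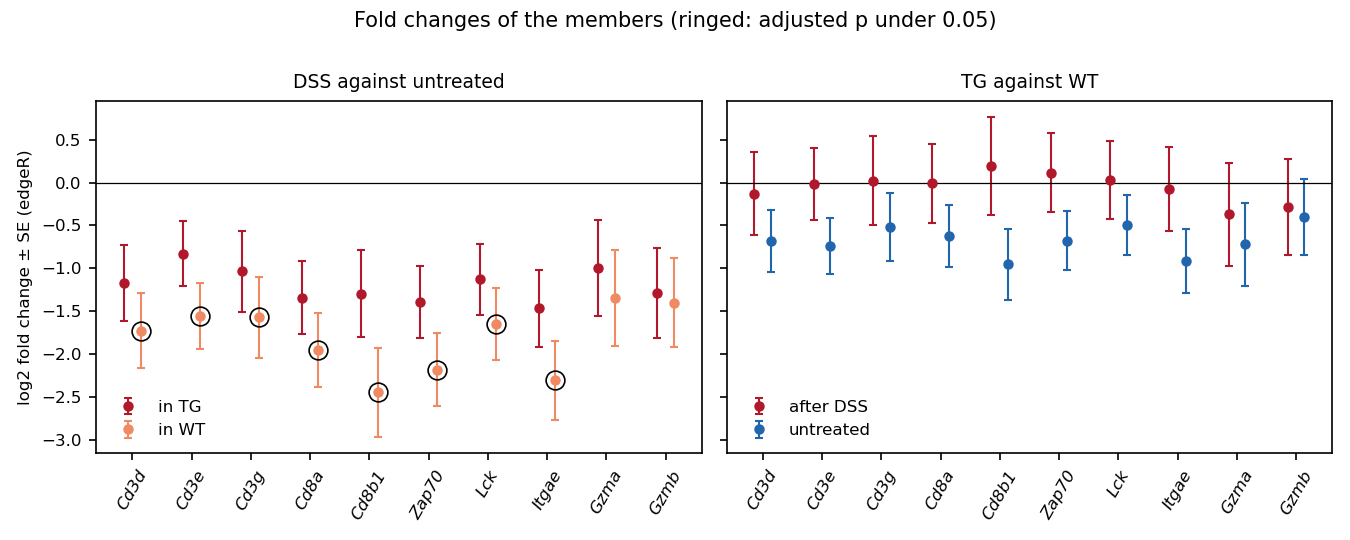
Log2 fold change with its standard error (edgeR) of each member for DSS against untreated (left, TG and WT) and for TG against WT (right, after DSS and untreated); black rings mark an adjusted p under 0.05. In WT 8 of 10 changes after DSS are ringed and in TG none, while TG against WT after DSS scatters around 0 with a median of -0.01.

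The difference between these DSS responses was tested itself, as the genotype by DSS interaction. None of the 10 members passed in edgeR and none had an unadjusted p under 0.05; 0.846% of all genes tested were called in either direction. The 10 interaction values were all above 0, from 0.12 for Gzmb (SE 0.71) to 1.15 for Cd8b1 (SE 0.70), with a median of 0.58. That median was 0.27 without TG untreated 1 and 0.24 without WT untreated 2, and in both cases the values of Gzma and Gzmb were below 0. Without TG untreated 3 it was 0.96, with 1 unadjusted p under 0.05 and a lowest edgeR adjusted p of 0.393. A fall in WT that differs from the fall in TG was therefore not shown for any member.

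Between the genotypes, no member passed in edgeR, either after DSS, where 0.185% of all genes were called in either direction, or in untreated tissue, where 3.7% were. After DSS the log2 change of TG against WT had a median of -0.01 and ran from -0.37 for Gzma (SE 0.60) to 0.20 for Cd8b1 (SE 0.57), and no unadjusted p was under 0.05. With standard errors of 0.42 to 0.60, differences of this size could not be resolved with 2 libraries a group. In untreated tissue all 10 members were lower in TG by mean, with a median of -0.68, and 3 had an unadjusted p under 0.05: Cd3e (log2 -0.74, SE 0.32, edgeR adjusted p = 0.231), Cd8b1 (log2 -0.95, SE 0.41, adjusted p = 0.225) and Itgae (log2 -0.92, SE 0.37, adjusted p = 0.203). The median was -0.34 without TG untreated 1 and -0.31 without WT untreated 2, and in neither case did any member have an unadjusted p under 0.05. Without TG untreated 3 the median was -0.99, 6 members had an unadjusted p under 0.05 and the lowest edgeR adjusted p was 0.0800. Itgae averaged 26.5 ± 12.1 CPM in TG untreated and 50.1 ± 22.9 CPM in WT untreated (SD, n = 3 each), and without TG untreated 1 its log2 change was -0.59 (SE 0.30, edgeR adjusted p = 0.27).

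Other genes of the T cell receptor pathway followed the members. Of 23 tested genes for the remaining receptor chain, co-receptors and signalling proteins, 22 fell after DSS in WT and none rose, with a median log2 change of -2.13. Lat, the scaffold that Zap70 phosphorylates, stood at 2.99 and 3.34 CPM in TG DSS, 2.36 and 1.94 CPM in WT DSS, 4.23, 9.04 and 10.6 CPM in TG untreated and 13.2, 26.0 and 14.8 CPM in WT untreated. In WT it fell 8.35-fold (log2 -3.06, SE 0.44, edgeR adjusted p = 0.00186). The co-stimulatory receptor Cd28 (log2 -3.25), the receptors Cd5 (-2.83) and Cd6 (-2.93), which tune receptor signalling, the adhesion receptor Cd2 (-2.15) and the zeta chain Cd247 (-1.62) also fell in WT. The count of 22 was 4 without WT DSS 2 and 12 without WT untreated 2, and Cd247 was called in 10 of 21 other settings. In TG 2 of the 23 fell, Cd5 (log2 -2.31, edgeR adjusted p = 0.0194) and the adaptor Lax1 (log2 -2.22, adjusted p = 0.0444), and the median was -1.55 with all 23 below 0. Without TG untreated 1, 17 of the 23 were called in TG, and none without either TG DSS library, TG untreated 2 or TG untreated 3. Lax1 was called in 7 of 21 other settings and lost its call without any one library other than TG untreated 1. In untreated tissue 1 of the 23 was lower in TG, the phosphatase-like Ubash3a (log2 -1.51, edgeR adjusted p = 0.0466). That call held in 6 of 19 other settings and in none that left out a library, where the adjusted p was 0.0546 to 0.186. The constant genes of the T cell receptor were looked for by symbol and were not found among the genes listed in the libraries.

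Over all 14072 genes tested, 1434 were called higher after DSS in WT and 468 in TG. Of 16 tested cytotoxic and effector genes beside the granzymes above, 5 fell and 2 rose after DSS in WT, and none passed in TG. Those 7 calls in WT were 2 without WT DSS 2, 3 without WT DSS 1 and 4 without WT untreated 2, and in TG 4 were called without TG untreated 1. The chemokine gene Ccl5 stood at 21.0 and 28.6 CPM in TG DSS, 30.4 and 20.3 CPM in WT DSS, 27.7, 45.3 and 91.9 CPM in TG untreated and 73.1, 172 and 83.1 CPM in WT untreated, and fell 4.33-fold in WT (edgeR adjusted p = 0.0200). Ifng, the gene of interferon gamma, stood at 0.645 and 0.468 CPM in TG DSS, 0.532 and 0.810 CPM in WT DSS, 0.477, 0.768 and 1.18 CPM in TG untreated and 3.52, 7.14 and 3.57 CPM in WT untreated. WT untreated alone was high for Ifng: in WT it fell after DSS (log2 -2.80, SE 0.48, edgeR adjusted p = 0.00435), and in untreated tissue it was lower in TG than in WT (log2 -2.55, SE 0.40, edgeR adjusted p = 0.0131). It was the 1 gene of that list called between the genotypes. Prf1, the pore-forming perforin that delivers granzymes, stood at 0.176 and 0.468 CPM in TG DSS, 0.414 and 0.432 CPM in WT DSS, 0.179, 1.59 and 1.86 CPM in TG untreated and 1.88, 3.69 and 1.23 CPM in WT untreated.

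Genes of epithelial residence and innate-like receptors gave 15 lower and 1 higher of 30 tested after DSS in WT, and 3 lower and 1 higher in TG. Those 16 calls in WT were 3 without WT DSS 2, and the 4 in TG were 20 without TG untreated 1. In WT the falls held Itgb7 (log2 -2.11, edgeR adjusted p = 0.0148), Cd160, a receptor of innate-like lymphocytes (-1.51, 0.0346), and Tbx21, the gene of T-bet (-2.54, 0.00538). Cd160 was called in 13 of 21 other settings. Nr4a1, induced by receptor signalling but expressed by many other cells, fell in both genotypes (log2 -1.77 in TG and -1.71 in WT). Of 21 tested epithelial factors that feed or attract these lymphocytes, 6 rose and 2 fell in WT and 4 rose in TG. Of all 14072 genes tested, 1434 were called higher and 1354 lower in WT, and 468 higher in TG. Those 8 calls in WT were 4 without WT untreated 3 and 5 without WT untreated 1 or WT untreated 2. The 4 in TG were 2 without TG untreated 2 or TG untreated 3. Il15, the cytokine that maintains intraepithelial lymphocytes, stood at 8.91 and 6.91 CPM in TG DSS, 8.80 and 5.24 CPM in WT DSS, 7.93, 8.15 and 9.55 CPM in TG untreated and 14.0, 14.2 and 15.1 CPM in WT untreated, and fell in WT (log2 -1.04, SE 0.23, edgeR adjusted p = 0.0122). The chemokine Cxcl16 and the cytokine Il18 rose in both genotypes, Cxcl16 by 1.45 in TG and 1.28 in WT and Il18 by 1.61 in TG and 1.55 in WT on the log2 scale. Cxcl10, which attracts Cxcr3-bearing T cells, rose in WT (log2 2.34, edgeR adjusted p = 0.00486), while Cxcr3 itself fell there (log2 -2.54, edgeR adjusted p = 0.00573).

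Markers of leukocytes in general moved with the members. Of 16 pan-leukocyte genes, 10 fell after DSS in WT (median log2 change -1.55) and 1 in TG (median -0.98), and their summed level was 171 and 166 CPM in TG DSS and 203 and 171 CPM in WT DSS, against 157, 359 and 511 CPM in TG untreated and 441, 788 and 412 CPM in WT untreated. The 10 calls in WT were 0 without WT DSS 2, and the 1 in TG was 11 without TG untreated 1. Again TG untreated 1 was at the level of the DSS libraries and WT untreated 2 the highest. The 14 epithelial genes gave 1 call after DSS in WT, Elf3, which was higher, and none in TG, and their sum was 25689 and 28881 CPM in TG DSS and 26329 and 21137 CPM in WT DSS, against 28337, 24678 and 25598 CPM in TG untreated and 23896, 25245 and 23198 CPM in WT untreated. In contrast to the T cell genes, macrophage and monocyte genes gave 5 higher and 1 lower of 13 in WT and 3 higher in TG, where 1434 (WT) and 468 (TG) of all 14072 genes were called higher. Those 6 calls in WT were 3 without WT untreated 1 or WT untreated 3, and the 3 in TG were 0 without TG DSS 2 and 1 without TG DSS 1. Their sum was 168 and 176 CPM in TG DSS and 224 and 190.4 CPM in WT DSS, against 109, 108 and 111 CPM in TG untreated and 119, 129.6 and 108 CPM in WT untreated. The DSS and untreated libraries did not overlap in this sum. A large part of it was Cd14, a co-receptor for bacterial lipopolysaccharide, at 80.4 to 124 CPM in DSS libraries and 30.9 to 53.3 CPM in untreated libraries. Without Cd14 the sum was 87.5 and 79.9 CPM in TG DSS and 99.7 and 70.5 CPM in WT DSS, against 56.1, 65.3 and 72.1 CPM in TG untreated and 80.6, 92.8 and 77.2 CPM in WT untreated, and the groups overlapped. That remaining sum held much Mertk, at 27.2 to 38.6 CPM in DSS libraries and 36.3 to 59.5 CPM in untreated libraries. Csf1r was at 4.59 to 7.03 CPM after DSS and 0.596 to 3.39 CPM untreated, and Cd68 at 2.17 to 2.90 and 0.835 to 1.31 CPM. Of the 13 tested genes, 3 had a log2 change below 0 in WT and 2 in TG.

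**Figure D3:**
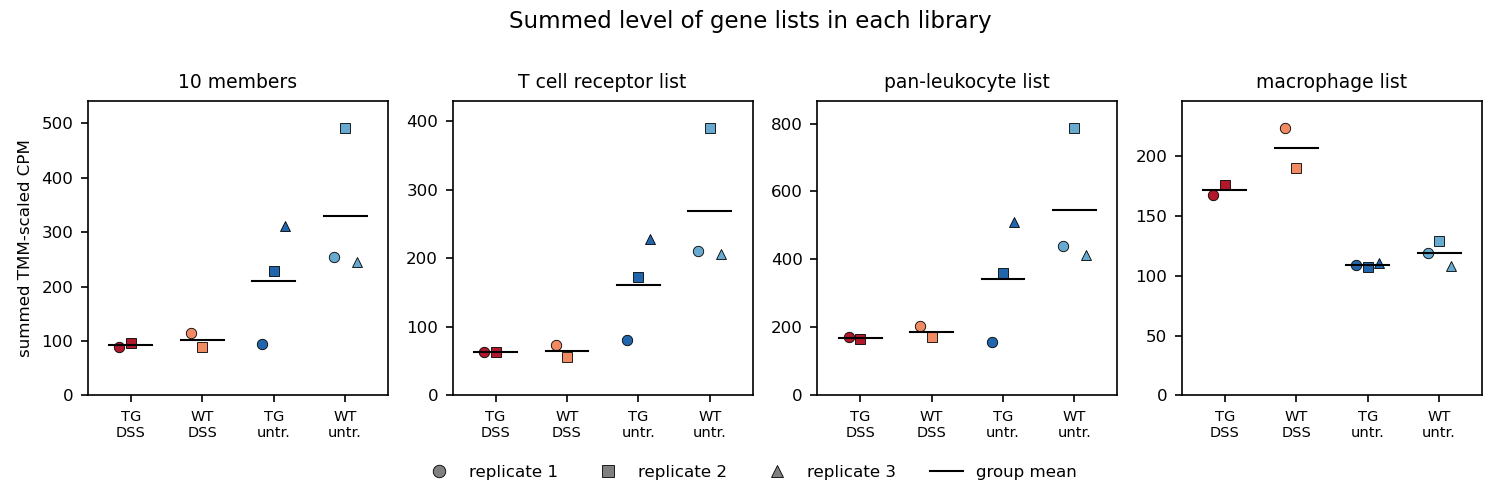
Summed TMM-scaled CPM of the 10 members and of 3 gene lists in each library of TG DSS, WT DSS, TG untreated and WT untreated; symbols are the replicates and bars the group means. The first 3 panels share a pattern, low after DSS and in TG untreated 1, while the macrophage list lies at 168 to 224 CPM in DSS libraries and 108 to 130 CPM in untreated libraries, a gap in the sum that closes when Cd14 is left out.

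Markers of other lymphocytes that could hold the same genes were low. The natural killer cell receptor Ncr1 lay at 0 to 0.177 CPM in DSS libraries and 0.119 to 0.357 CPM in untreated libraries, and of 8 tested genes of natural killer and innate lymphoid cells 3 fell and 1 rose in WT and 2 fell in TG. Cd4 lay at 0.176 to 0.945 CPM in DSS libraries and 0.354 to 2.50 CPM in untreated libraries, and Foxp3 of regulatory T cells at 0 to 0.410 CPM in DSS libraries and 0 to 0.179 CPM in untreated libraries. Of 10 tested genes of CD4 helper and regulatory T cells, 3 fell in WT, and in TG 1 rose and 1 fell. Dendritic cell genes gave 1 higher and 2 lower of 6 in WT and 1 higher in TG, B cell and plasma cell genes 1 lower of 8 in WT and none in TG, and mast cell genes 2 higher and 1 lower of 7 in WT and 1 higher and 1 lower in TG. Of 9 stromal and muscle genes, 3 fell in WT and 1 in TG. Of all 14072 genes tested, 9.62% were called lower and 1434 higher in WT, and 2.15% lower and 468 higher in TG. Some counts rested on single libraries. In WT the 4 natural killer and innate lymphoid calls were 1 without WT untreated 2 or WT untreated 3. The 3 stromal calls were 1 without WT untreated 1, while the 3 CD4 calls stayed without each untreated library. In TG the natural killer calls were 0 without TG untreated 2 and the CD4 calls 0 without TG untreated 3. The part that any of these cells had in the members' levels was not tested.

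Set against leukocyte genes, the members did not all keep step. Relative to Ptprc alone, none of the 10 passed for DSS against untreated, averaged over genotypes (exact permutation of the libraries within genotype, 100 arrangements, smallest possible two-sided p = 0.01). The largest was Gzma, higher by 0.72 on the log2 scale (exact p = 0.04, adjusted p = 0.4 over the 10 members), while Itgae was at -0.09, Zap70 at -0.02 and Cd8a at 0.14. Relative to the sum of the 16 pan-leukocyte genes, 3 of the 10 were lower after DSS: Itgae with a log2 difference of -0.61, Zap70 with -0.54 and Cd8a with -0.38, each at the smallest p the exact test allows (0.01, adjusted p = 0.0333 over the 10 members). Itgae stood at 5.35 and 6.07% of the sum in TG DSS and 5.81 and 4.97% in WT DSS, against 8.22, 8.56 and 7.05% in TG untreated and 8.03, 9.71 and 9.33% in WT untreated. Zap70 stood at 2.85 and 2.54% in TG DSS and 2.41 and 2.06% in WT DSS, against 4.05, 3.46 and 3.33% in TG untreated and 3.39, 3.44 and 3.66% in WT untreated. TG untreated 1, which was low for every member, sat with the other untreated libraries on this scale. Cd8a stood at 6.55 and 7.45% in TG DSS and 6.66 and 5.98% in WT DSS, against 9.97, 8.79 and 8.27% in TG untreated and 8.64, 8.74 and 7.47% in WT untreated. Cd8b1 had a log2 difference of -0.62 and missed the threshold after adjustment (exact p = 0.04, adjusted p = 0.1); without TG DSS 1 it was -0.37. The 3 CD3 genes, Lck, Gzma and Gzmb lay between -0.19 and 0.20, with adjusted p of 0.16 to 0.93. Itgae, Zap70 and Cd8a stayed lower relative to the pan-leukocyte sum without each library in turn, from -0.67 to -0.55 for Itgae, -0.59 to -0.48 for Zap70 and -0.42 to -0.33 for Cd8a. The result holds for this sum and not for Ptprc. The level of Ptprc was lowest in TG untreated 1. For Itgae, Zap70 and Cd8a, the WT groups, which do not hold that library, differed little on the Ptprc scale too. In WT DSS and WT untreated the mean log2 ratio to Ptprc was -0.92 and -0.73 for Itgae and -2.19 and -2.09 for Zap70. For Cd8a it was -0.69 and -0.85, higher after DSS. Larger rises in WT on this scale were those of Gzma (0.41 and -0.38) and Gzmb (-0.033 and -0.74). Cd3d, Cd3e, Cd3g and Lck were also higher in WT DSS, for example Lck at -0.73 and -1.17. Cd8b1 was lower there, at -2.82 and -2.53. Why the denominators differ was not tested. The permutation test was chosen after the data had been seen.

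**Figure D4:**
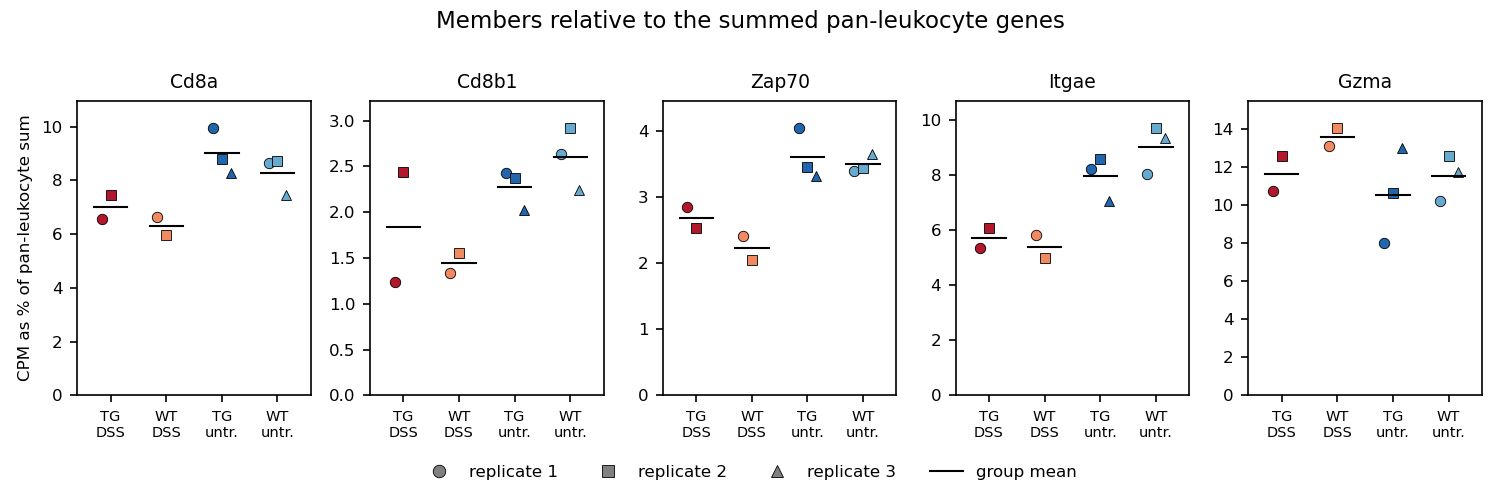
CPM of 5 members as a percentage of the summed CPM of 16 pan-leukocyte genes in each library of TG DSS, WT DSS, TG untreated and WT untreated; symbols are the replicates and bars the group means. For Cd8a, Zap70 and Itgae all 4 DSS libraries lie below all 6 untreated libraries, for Cd8b1 and Gzma the groups overlap.

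Across the 10 libraries, the genes whose pattern was most like that of the members, by the Pearson correlation of log2 CPM with the members' mean over 12726 genes, were Selplg (0.998), a ligand for selectins on leukocytes, Cyth4 (0.996), Cyfip2 (0.994), a regulator of actin, Ptpn22 (0.993), a phosphatase that restrains receptor signalling, Coro1a (0.993), an actin-binding protein of leukocytes, Anxa6 (0.993), Rinl (0.992) and Ikzf1 (0.991), the gene of the lymphoid transcription factor Ikaros. Of these, Selplg and Coro1a were on the pan-leukocyte list and Ptpn22 on the T cell receptor list. The correlations are a description: the 10 points share the contrast of DSS with untreated and the 2 libraries at the ends of the untreated range.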

How the data were processed

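Poly-A RNA of 10 libraries was sequenced on a BGISEQ-500, per the labels' protocols, and libraries were grouped by genotype and treatment from the labels. The authors deposited expected counts, FPKM values and gene lengths per gene and library. The deposited FPKM values are scaled to gene length and library size by the authors. HISAT2 2.0.4, Bowtie2 2.2.5, RSEM 1.2.12 and mm10 are named in the submitters' processing notes, with no role or order; the strand setting is not given in the sources used here. A gene missing from a library's table was set to 0. Coordinates and promoter windows are RefSeq GRCm38.p6.

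After rounding of the expected counts, filterByExpr (count minimum 10, total minimum 15) left 14072 genes, and TMM set the library scale. The quasi-likelihood model of edgeR 4.0.16 (R 4.3.3) took all 4 groups at once, with 6 residual degrees of freedom and a biological coefficient of variation of 0.171, and gave 5 contrasts, called at a Benjamini-Hochberg adjusted p under 0.05. The test was tried on simulated data. Same-group libraries differed by more than counting error in all 8 pairs (chi-square per gene 9.98 to 65.1). Ratios were compared by exact permutation within genotype. Python 3.11.15 with pandas 2.3.3 and numpy 2.4.6 made the tables.

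The members, the gene lists and the naming rule (all members, the first 2 genes of a list and up to 3 called genes per contrast with the largest change, and the 8 genes most alike in pattern over genes with a mean of at least 1 CPM) were chosen with earlier results of these data known. Alternatives were DESeq2 1.42.0, other scalings and filters, a fit restricted to the groups of a contrast, a block for the replicate number, limma 3.58.1 on log2(FPKM + 1) or log2(FPKM + 0.1), and leaving out each library. Values of some genes on the lists are not reported here.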

Additional observations from a re-analysis of the deposited data

How the results depend on the processing

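For DSS in WT, the 8 members called became 4 with the replicate number as a block and 0 to 10 when 1 library was left out. For DSS in TG, the 0 called became 3 in DESeq2 and 0 to 9 when 1 library was left out. In the other 3 contrasts no setting called a member. The replicate numbers did not pair the samples (same-number correlations of deviations between TG and WT untreated were 0.0831, -0.0133 and -0.186), and the DSS groups hold 2 numbers only. For DSS in TG and in WT no log2 change of a member turned its sign. TG against WT after DSS, all close to 0, turned sign for Cd3g (-0.0506 with total count scaling, -0.0108 with the replicate block, -0.0329 on log2(FPKM + 1) with and without the filter, -0.0351 on log2(FPKM + 0.1)), for Lck (-0.0444 with total count scaling, -0.0289 on log2(FPKM + 1) with and without the filter, -0.0331 on log2(FPKM + 0.1)) and for Zap70 (-0.00225 on log2(FPKM + 0.1)). Leaving out 1 library turned its sign for 8 members, with ranges of -0.39 to 0.18 for Cd3d, -0.21 to 0.22 for Cd3e, -0.22 to 0.31 for Cd3g, -0.20 to 0.21 for Cd8a, -0.35 to 0.59 for Cd8b1, -0.11 to 0.37 for Zap70, -0.15 to 0.23 for Lck and -0.30 to 0.18 for Itgae. Without 1 library Gzmb ranged from -0.84 to 0.0098 for TG against WT untreated, and the interaction from -0.10 to 0.97 for Gzma and from -0.30 to 0.55 for Gzmb. Relative to Ptprc in place of the pan-leukocyte sum, Cd8a (0.14), Cd3d (0.32), Cd3g (0.51), Lck (0.39) and Gzmb (0.49) changed sign for DSS against untreated, and without 1 library Cd8b1 relative to that sum ranged from -0.86 to -0.37. The interaction could not be fitted with only the groups compared. With 2 DSS libraries a genotype and members at 36.12 to 1665 counts, the spread between libraries sets the precision, and the cause of these dependences was not tested.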

Other observations

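TG untreated 3 stood apart for 2 genes of other lymphocytes. It held 6.58 CPM of Ms4a1, the gene of CD20 on B cells, against 0.117 to 0.65 CPM in the other 9 libraries. Ccr7, a homing receptor of naive lymphocytes, was at 6.70 CPM in the same library, against 0.238 to 1.12 CPM in the others. These genes were picked after their values were seen. The members' summed level in TG untreated 3, at 312 CPM, lay within the range of the WT untreated libraries.

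Hdc, the enzyme that makes histamine, stood at 1.82 and 0.761 CPM in TG DSS, 2.95 and 1.94 CPM in WT DSS, 0.179, 0.118 and 0.124 CPM in TG untreated and 0.117, 0.119 and 0.246 CPM in WT untreated, and rose after DSS in both genotypes (log2 3.13 in TG, edgeR adjusted p = 0.00940, and 3.87 in WT, adjusted p = 0.001000). Cd14 rose too (log2 0.98 in TG and 1.79 in WT, edgeR adjusted p = 0.00546 and 0.000126).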
